A study of Mus musculus with 18 samples.

Results

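Ly-6C(hi) monocytes labelled Zeb2-deficient were compared with neutrophils labelled Zeb2-deficient, both sorted from mouse bone marrow. The comparison rests on 8 of the 18 arrays of the series, 4 per cell type, chosen by label alone, and was read across all genes. The deficient mice carried Zeb2(fl/fl);Mx1-Cre(tg) on the C57BL/6 background and received poly(I:C), an RNA mimic that induces interferon and so switches on the Mx1 promoter of the Cre transgene, as 2 intraperitoneal injections of 150 µg within 48 h. Marrow was taken 3 weeks later. The reference for the difference between the lineages was 8 arrays of poly(I:C)-treated controls, 4 per cell type, from Zeb2(fl/fl) mice of the same background without Cre. Cre activity and loss of Zeb2 therefore cannot be told apart, and every group used here had received poly(I:C). One untreated control array per cell type entered no comparison. Mx1-Cre is active in many blood cells and in other tissues, so the deletion is not limited to the sorted cells. Separate animals are not stated for the replicate arrays, so p-values describe the spread between these samples alone, which could be technical, and the number of arrays limits the precision.

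Zeb2 encodes a zinc-finger and homeodomain repressor that binds E-box motifs and recruits co-repressors. Monocytes and neutrophils arise from shared progenitors in the marrow. Neutrophil precursors fill primary granules first, then secondary and gelatinase granules, and only late acquire the chemokine receptors and the inflammatory transcripts of mature cells. Ly-6C(hi) monocytes leave the marrow through the chemokine receptor Ccr2 and are recruited to inflamed tissue. The comparison asks which differences between these cell types persist and which narrow in cells labelled Zeb2-deficient.

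Promoters of 5 neutrophil genes are shown because the genes divide the results: Ly6g, Retnlg and Chil1 lost most of their difference between the lineages, and Il1b and Ptgs2 kept it. The sequences are from RefSeq on GRCm38.p6, 300 bases around the annotated start, with 250 of them before the start of Ly6g, Retnlg, Chil1 and Ptgs2, 5′ to 3′ on the strand of the gene. Capitals mark CACCTG or its complement CAGGTG, the E-box bound by Zeb factors, and TTGCNNAA or its complement TTNNGCAA, a motif of C/EBP factors, on either strand. Ly6g lies at chr15:75155011-75155310 (plus strand), Retnlg at chr16:48872358-48872657 (plus strand), Chil1 at chr1:134181906-134182205 (plus strand), Il1b at chr2:129371090-129371389 (minus strand) and Ptgs2 at chr1:150099781-150100080 (plus strand).
Ly6g: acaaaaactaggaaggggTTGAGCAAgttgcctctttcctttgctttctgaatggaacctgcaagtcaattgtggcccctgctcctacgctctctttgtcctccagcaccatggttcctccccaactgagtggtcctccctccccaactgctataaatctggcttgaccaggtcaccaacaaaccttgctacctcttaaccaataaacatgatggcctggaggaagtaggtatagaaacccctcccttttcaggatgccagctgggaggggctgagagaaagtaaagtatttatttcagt
Retnlg: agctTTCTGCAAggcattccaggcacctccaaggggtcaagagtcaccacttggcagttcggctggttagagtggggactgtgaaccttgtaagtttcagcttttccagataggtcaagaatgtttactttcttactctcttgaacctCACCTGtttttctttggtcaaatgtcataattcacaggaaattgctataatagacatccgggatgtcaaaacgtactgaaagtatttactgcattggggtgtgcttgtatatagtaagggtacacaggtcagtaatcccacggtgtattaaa
Chil1: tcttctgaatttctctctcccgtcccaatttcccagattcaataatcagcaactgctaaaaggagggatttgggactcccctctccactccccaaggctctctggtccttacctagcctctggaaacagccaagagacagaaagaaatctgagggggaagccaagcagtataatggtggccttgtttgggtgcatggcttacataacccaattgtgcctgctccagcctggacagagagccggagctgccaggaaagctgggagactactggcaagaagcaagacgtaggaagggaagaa
Il1b: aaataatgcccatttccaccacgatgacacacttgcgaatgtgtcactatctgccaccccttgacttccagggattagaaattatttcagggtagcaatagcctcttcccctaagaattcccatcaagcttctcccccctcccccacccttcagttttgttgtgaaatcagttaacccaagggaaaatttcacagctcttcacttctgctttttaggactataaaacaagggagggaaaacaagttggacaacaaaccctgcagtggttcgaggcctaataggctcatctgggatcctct
Ptgs2: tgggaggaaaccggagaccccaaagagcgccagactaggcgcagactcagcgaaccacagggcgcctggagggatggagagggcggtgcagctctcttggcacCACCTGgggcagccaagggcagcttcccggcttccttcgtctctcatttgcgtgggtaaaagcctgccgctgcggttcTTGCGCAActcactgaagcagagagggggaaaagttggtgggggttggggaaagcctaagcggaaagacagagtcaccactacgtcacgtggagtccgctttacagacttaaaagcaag
Retnlg and Ptgs2 each held 1 match to both motifs, Ly6g held 1 match to the C/EBP motif alone, and Chil1 and Il1b held no match to these letters in this window. A match is a description of the letters and not of a bound site.

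Differences are given as monocytes minus neutrophils on the log2 scale of the array intensities, so that negative values are higher in neutrophils. A gene was called at an adjusted p under 0.05 from limma, with Benjamini-Hochberg adjustment over the 13387 genes tested. A level is termed dim where the group mean lay below the 40th percentile of its arrays, and no fold is given for a gene that is dim in either cell type. Values are compared between groups for the same gene and never between genes.

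The arrays carried the markers of their labels, with an exception in the monocytes. The mean over Ccr2, Csf1r, F13a1 and Ly86 ran from 9.28 to 10.58 in the 4 deficient monocyte arrays and from 4.86 to 5.49 in the 4 deficient neutrophil arrays. The mean over the neutrophil markers Ly6g, Cxcr2, Csf3r, Mmp9 and S100a9 ran from 11.85 to 12.03 in deficient neutrophils. It ran from 8.63 to 9.62 in deficient monocytes, above the 6.32 to 7.11 of control monocytes, so the deficient monocyte arrays carried markers of both lineages. A loss of cells of a type and less RNA per cell cannot be told apart in such bulk samples, and neither can a mixture of cells and RNA of both kinds within a cell. Csf3r, the receptor of granulocyte colony-stimulating factor and one of the same markers, read 8.76 ± 0.11 (SD, n = 4) in deficient and 8.76 ± 0.14 (SD, n = 4) in control monocytes, against 11.22 ± 0.15 (SD, n = 4) in deficient neutrophils.

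Markers of other blood lineages were dim in part. Of 5 eosinophil markers 4 were dim in deficient monocytes and 3 in deficient neutrophils, and of 4 mast cell and basophil markers 3 were dim in each. None of the 4 megakaryocyte markers was dim in either cell type, nor were 3 of the 4 progenitor markers and 1 of the 2 erythroid ones. Siglecf, an eosinophil marker, read 6.59 in deficient and 5.49 in control monocytes (adjusted p = 0.00618 by limma), and 6.66 and 6.13 in neutrophils. Mcpt8, a basophil protease, read 6.09 in deficient and 4.68 in control monocytes, and 5.93 and 4.80 in neutrophils. The platelet genes Pf4 and Ppbp read 6.61 and 7.98 in deficient neutrophils against 5.44 and 6.32 in control neutrophils. The other megakaryocyte markers, Itga2b and Gp9, read 5.34 and 5.55 in deficient neutrophils against 5.3 and 5.54 in control neutrophils. Neither the changes of Pf4 and Ppbp nor those of Mcpt8 passed. The part of such cells in the differences below was not tested.

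The arrays formed sets that the labels do not name. Deviations from the group means showed arrays numbered 1 and 2 apart from those numbered 3 and 4 among the deficient cells, and controls 1 and 2 apart from 4 and 5. They are called set A and set B below. Deficient monocyte array 2 also lay nearest the control monocytes in many of the genes below, and several counts of called changes are also given without it. It was singled out from these same values, so the counts without it describe its weight and add no support. The change of the difference was called for 359 genes with all arrays and for 904 without array 2. Leaving out deficient monocyte array 3 instead gave 245.

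Zeb2 itself kept a difference between the deficient cell types. Its 4 deficient monocyte arrays read 9.75, 9.84, 9.46 and 8.74, and its 4 deficient neutrophil arrays 7.72, 7.10, 7.85 and 8.25. The arrays did not overlap, and the difference of 1.71 ± 0.24 (SE) corresponds to 3.28-fold (adjusted p = 6.88e-06 by limma). Between control monocytes and neutrophils it was 2.68, and the change of -0.97 did not pass (adjusted p = 0.16). The deleted exons are not named in the labels and the probe set summarises the transcript, so this level checks no deletion.

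Most differences between the lineages persisted. Of the 13387 genes, 8312 (62.1%) differed between deficient monocytes and deficient neutrophils: monocytes were the higher in 4019 (30.0%) and neutrophils in 4293 (32.1%). The 4 monocyte and 4 neutrophil arrays did not overlap for 6781 genes (50.7%). At 2-fold or more, 1779 genes (13.3%) were higher in monocytes and 794 (5.93%) higher in neutrophils. In controls, 7846 genes (58.6%) were called, with monocytes the higher in 3998 (29.9%) and neutrophils in 3848 (28.7%), and 6466 genes were called with the same sign in both comparisons against 21 called with the other sign. The median difference over all genes was -0.077 in controls and -0.0897 in deficient cells, and Pearson's r between the 2 sets of differences was 0.914 across genes, which are not independent replicates. The 2 comparisons share no array.

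The genes that separated control monocytes from control neutrophils by 2-fold or more were taken as lineage genes: 1804 (13.5%) higher in monocytes and 958 (7.16%) higher in neutrophils. Between deficient cells, 1430 of the monocyte-high genes (79.3%) and 636 of the neutrophil-high genes (66.4%) again differed by 2-fold or more with the same sign. None passed with the opposite sign. The change of the difference, deficient minus control, was called for 359 of all genes (2.68%), positive for 290 (2.17%) and negative for 69 (0.515%). A called change narrowed the difference of 210 neutrophil-high genes (21.9%) and 51 monocyte-high genes (2.83%), and it widened 5 of each kind (0.277% of monocyte-high and 0.522% of neutrophil-high genes). The median difference moved from -1.57 to -1.23 for neutrophil-high genes and from 1.52 to 1.42 for monocyte-high genes. Because lineage genes were chosen in the control arrays, which also enter the change, some shrinking follows from the choice. With lineage genes chosen in the deficient arrays instead, 102 of 794 neutrophil-high and 28 of 1779 monocyte-high genes narrowed and 50 widened. These 102 and 28 are the members of the 210 and 51 that also passed between deficient cells. The second choice is therefore no separate check of the narrowing.

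**Figure D1:**
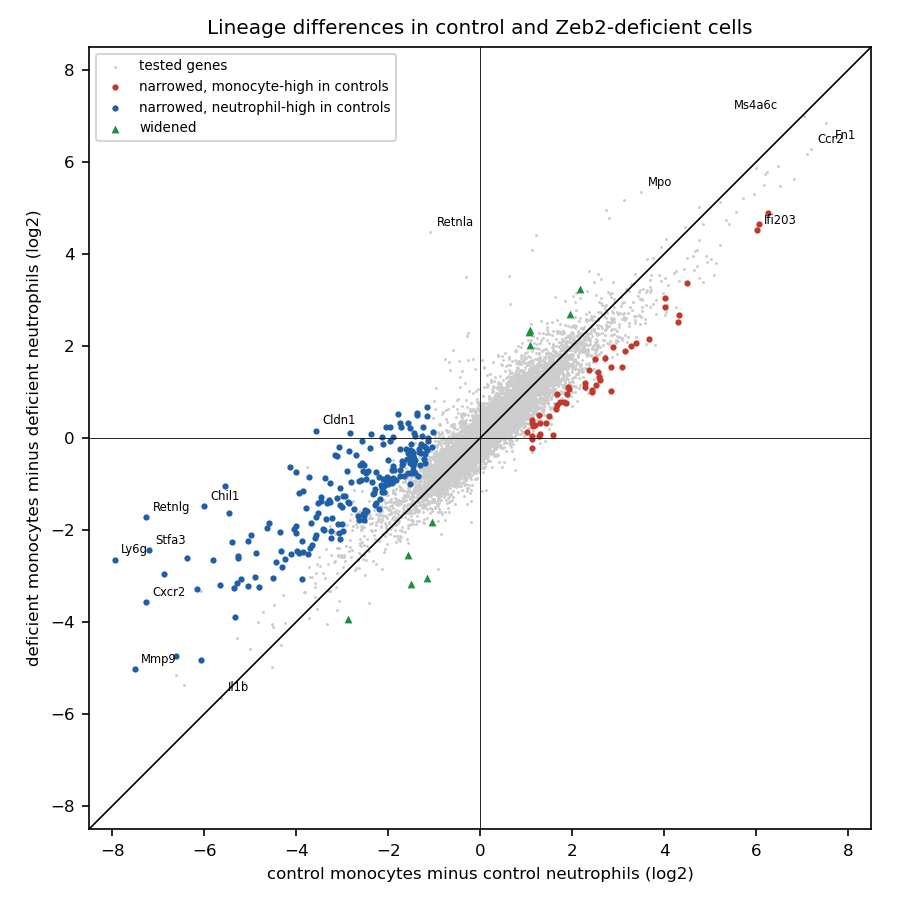
Each point is 1 of 13387 genes, with the difference between control monocytes and control neutrophils on the x axis and between deficient monocytes and deficient neutrophils on the y axis (log2), and the diagonal marks equal differences. Blue points are the 210 narrowed neutrophil-high genes, red points the 51 narrowed monocyte-high genes and green triangles the 10 widened genes; Ly6g and Retnlg lie far above the diagonal, whereas Il1b and Ms4a6c lie on it.

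The narrowing of neutrophil-high genes lay mostly in the monocytes. Among the 210 narrowed neutrophil-high genes, 207 were higher in deficient than in control monocytes by a called change and none was lower in deficient neutrophils by one. Their median change was 1.31 in monocytes and -0.15 in neutrophils. Of the 51 narrowed monocyte-high genes, 40 fell in monocytes by a called change and 4 rose in neutrophils by one. The median change of these 51 was -0.76 in monocytes and 0.35 in neutrophils. Over all genes, 1010 (7.54%) changed between deficient and control monocytes and 16 (0.12%) between deficient and control neutrophils, 2 of them (0.0149%) lower in deficient neutrophils; these changes share arrays with the narrowing itself. Without deficient monocyte array 2 the change of the difference was called for 904 genes, positive for 4.24% of all genes and negative for 2.51%. It then narrowed 300 neutrophil-high and 211 monocyte-high genes, against 210 and 51 with all arrays, and widened 49. Monocyte-high genes thus made up a larger part of the narrowed genes without that array. Within set A, 94 neutrophil-high and 5 monocyte-high genes narrowed, and within set B, 262 neutrophil-high and 146 monocyte-high genes did.

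**Figure D2:**
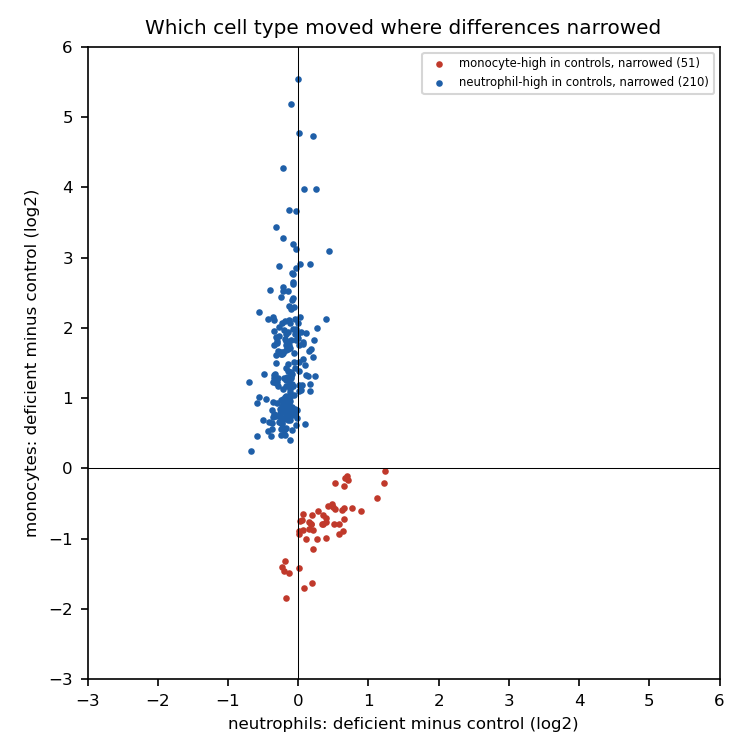
Each point is 1 narrowed lineage gene, with its change in neutrophils on the x axis and in monocytes on the y axis (deficient minus control, log2). The 210 blue neutrophil-high genes rise along the monocyte axis with a median change of 1.31 there against -0.15 in neutrophils. The 51 red monocyte-high genes sit below 0 on the monocyte axis in the median, at -0.76, with a median of 0.35 on the neutrophil axis.

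Monocyte identity genes stayed higher in monocytes, by a smaller median difference. Of 32 genes tested on the Ly-6C(hi) monocyte list, 26 were higher in deficient monocytes and 1 in deficient neutrophils, against 30.0% and 32.1% of all genes. Their median difference was 2.64, against 3.31 in controls, and 1 of 32 had a called change, Tmem176b, which narrowed from 2.56 to 1.43. Without deficient monocyte array 2 the change was negative and called for 12 of the 32, against 2.51% of all genes, and positive for 1, against 4.24%. Of the 55 monocyte-high lineage genes with at least a 16-fold difference in controls, 30 narrowed without that array. The change was below 0 for 30 of the 32, the median being -0.33 within set A and -1.02 within set B. Monocyte levels themselves fell for 13 of the 32 by a called change, against 2.44% of all genes, and for 22 without that array, against 7.10%.

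The gene with the highest difference was Ms4a6c, a tetraspanning membrane protein of monocytes. Its deficient monocyte arrays read 10.46, 10.54, 9.98 and 9.85, and its neutrophil arrays 3.14, 3.24, 3.41 and 3.01, which is dim. The groups stood 7.01 ± 0.17 (SE) apart, with 7.05 in controls (adjusted p of the change 0.976). Fn1, which encodes the matrix protein fibronectin, read 11.52, 12.02, 11.32 and 10.63 in deficient monocytes and 4.31, 4.63, 4.56 and 4.57 in neutrophils. Its difference of 6.86 ± 0.21 (SE) is 116-fold, against 184-fold in controls, and the change of -0.67 did not pass (adjusted p = 0.319). Ccr2, the receptor for exit from the marrow, read 10.56, 10.80, 10.31 and 9.88 in deficient monocytes against dim neutrophil levels of 3.99, 3.41, 4.25 and 4.76. Its difference was 6.29 ± 0.24 (SE), against 7.20 in controls (adjusted p of the change 0.207). The monocyte and neutrophil arrays of all these genes lay far apart.

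The calcium-binding proteins S100a10 and S100a4, the galectin Lgals1, the coagulation factor F13a1, and Ms4a6b, Ly86 and Pld4 completed the 10 highest differences, from 5.50 for Pld4 to 6.18 for Ms4a6b among these 7. Ly86, the partner of the Toll-like receptor homologue Cd180, differed by 5.62, against 6.82 in controls. None of the 10 had a called change. Without deficient monocyte array 2, the changes of Fn1 (-0.88), Ly86 (-1.44) and Ms4a6b passed.

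Among the 55 monocyte-high genes with at least a 16-fold difference in controls, the median share of the log2 difference kept in deficient cells was 84.0%, from 58.5% to 107.0%. Of shares not over 100%, the highest were those of Ms4a6c (99.5%), Cd48 (98.3%), S100a10 (97.6%), Clec4a1 (95.8%) and S100a4 (92.8%). The lowest belonged to Adgre4 (58.5%), Abca9 (61.6%), Cyria (66.6%), Cx3cr1 (66.8%) and Ms4a8a (67.8%). Cx3cr1, the fractalkine receptor that rises as monocytes mature, read 7.78, 9.08, 8.68 and 8.19 in deficient monocytes and 5.25, 5.51, 6.23 and 5.39 in neutrophils. Its difference went from 4.25 to 2.84, a change of -1.41 ± 0.38 (SE) with adjusted p = 0.056, and 0.0192 with array numbers as a block. Adgre4, an adhesion receptor of the EGF-TM7 family, read 0.0468 and 0.0508 for the same p-values. The labels state no pairing by array number. Here and below, p-values with this block show dependence on the model and replace no main test.

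Over the 51 narrowed monocyte-high genes the median difference went from 2.29 to 1.06, beside -2.54 to -0.97 over the 210 narrowed neutrophil-high genes. The smallest p of the change among the 51 belonged to Mta3, a subunit of the NuRD co-repressor complex, which read 7.22, 7.62, 7.14 and 7.09 in deficient monocytes and 7.19, 7.31, 7.01 and 7.21 in neutrophils. The arrays overlapped, and a control difference of 1.31 had become 0.09 (adjusted p of the change 0.00076). Cd209a, a C-type lectin of dendritic cells and a subset of monocytes, fell by 1.49 in monocytes and differed by -0.23 between deficient cells, against 1.14 in controls. Pou2f2, the transcription factor Oct-2, narrowed from 2.29 to 1.20. The same rule named Map7d3, Nlrp1c-ps, Neurl2, Tmem64 and Gpr155, whose differences in deficient cells ran from 0.26 for Tmem64 to 1.47 for Map7d3.

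In 4 of the 51 narrowed monocyte-high genes the neutrophils rose by a called change. Tmsb10, an actin-binding thymosin, read 11.40, 11.17, 11.55 and 11.59 in deficient neutrophils, and rose by 0.66 over control neutrophils (adjusted p = 0.00568), while its monocyte level changed by -0.13 (adjusted p = 0.517). Ifi203, an interferon-inducible gene of the p200 family, rose by 0.89 in neutrophils and fell by 0.61 in monocytes, and its difference narrowed from 6.03 to 4.53.

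The mature neutrophil genes divided into those with a called higher level in deficient than in control monocytes and those without one. Of 35 genes tested on the list of mature neutrophil surface and signalling molecules, 33 were higher in deficient neutrophils, against 32.1% of all genes, and the other 2 were not called. The median difference was -4.50 in controls and -2.54 in deficient cells, with -2.53 in set A and -2.46 in set B. The change was positive and called for 16 of the 35, against 2.17% of all genes, and 20 of the 35 were higher in deficient than in control monocytes, against 5.11%, or 21 without deficient monocyte array 2, against 7.84%. The list is made of neutrophil genes, and a called change narrowed 21.9% of all neutrophil-high lineage genes. It narrowed 41 of the 57 with at least a 16-fold difference in controls.

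Ly6g, the surface antigen that defines mouse neutrophils, had the smallest p of the change. It read 9.59, 8.35, 9.16 and 9.24 in deficient monocytes and 11.80, 11.92, 11.63 and 11.57 in deficient neutrophils, beside 3.90 ± 0.42 (SD, n = 4) in control monocytes, which is dim, and 11.84 ± 0.19 (SD, n = 4) in control neutrophils. All 4 deficient monocyte arrays lay between the controls of the lineages, array 2 the lowest. The difference was -2.64 ± 0.22 (SE), against -7.94 in controls, a change of 5.29 ± 0.31 (SE) with adjusted p = 2.12e-08. Within set A the change was 5.52 and within set B 5.06. Deficient neutrophils were 6.25-fold above deficient monocytes.

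Retnlg, a resistin-like secreted protein of neutrophils, came closer still. Its deficient monocyte arrays read 10.95, 9.85, 10.93 and 10.62, and its neutrophil arrays 12.20, 12.20, 12.40 and 12.40. A control difference of 153-fold had become 3.28-fold, with a change of 5.55 ± 0.34 (SE) and adjusted p = 2.12e-08. The chemokine receptor Cxcr2, which draws neutrophils out of the marrow, read 9.19, 7.46, 8.66 and 8.46 in deficient monocytes and 11.91, 11.99, 12.09 and 12.09 in neutrophils. Its difference went from -7.26 to -3.57, and the change of 3.69 ± 0.45 (SE) had an adjusted p of 0.00018. In both genes array 2 was again the lowest of the monocytes and the deficient groups did not overlap. Il18rap, a subunit of the interleukin-18 receptor, and Il1f9, an interleukin-1 family cytokine, narrowed from -5.25 to -2.57 and from -6.86 to -2.96.

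Some of the 10 largest differences on the neutrophil side lay close to those of controls. Il1b, which encodes interleukin-1 beta, read 5.37, 5.91, 5.61 and 5.42 in deficient monocytes and 11.10, 11.02, 11.22 and 11.53 in neutrophils. The difference of -5.64 ± 0.23 (SE) was the largest, and that of controls was -5.62 (adjusted p of the change 0.99). Ptgs2, the inducible cyclooxygenase, read 4.89, 5.51, 5.21 and 5.02 in deficient monocytes and 10.39, 10.31, 10.35 and 10.88 in neutrophils, 40.2-fold apart against 35.1-fold in controls. Cxcl2, a chemokine that attracts neutrophils, differed by -4.97 and by -4.53 in controls, and Cd101, an inhibitory receptor of mature neutrophils, by -4.50 and -4.32. Between deficient and control monocytes, Il1b changed by 0.17, Ptgs2 by 0.22, Cxcl2 by 0.00 and Cd101 by 0.03, beside 5.18 for Ly6g, and none of the 4 passed.

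**Figure D3:**
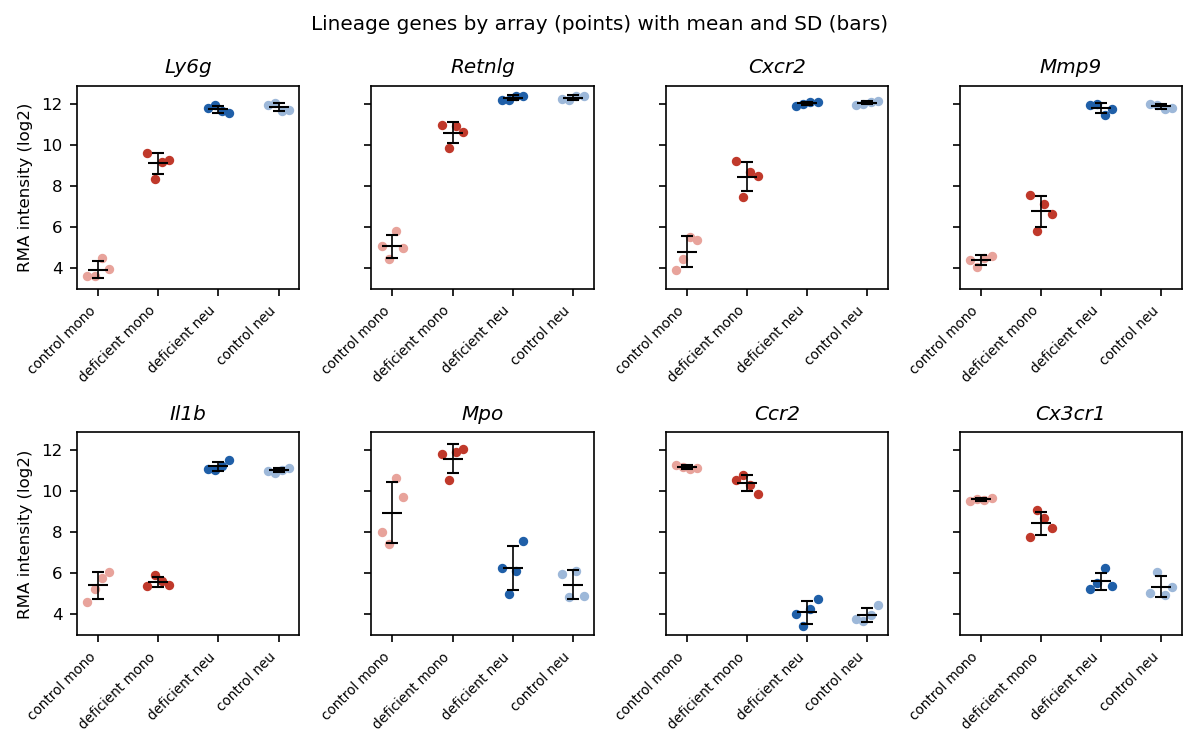
RMA intensity (log2, y axis) of 8 genes in control monocytes, deficient monocytes, deficient neutrophils and control neutrophils; points are arrays and bars the mean with SD (n = 4). Ly6g, Retnlg and Cxcr2 in deficient monocytes lie between the control cell types, Il1b stays at the level of control monocytes, Mpo is highest in deficient monocytes, and Ccr2 remains far above its neutrophil level.

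Of the other 6 genes of the 10, a called change narrowed 3. Mmp9, the gelatinase of tertiary granules, read 7.55, 5.77, 7.10 and 6.62 in deficient monocytes and 11.93, 12.00, 11.43 and 11.76 in neutrophils. Its difference of -5.02 ± 0.26 (SE) was still 32.5-fold, although it had narrowed from -7.51 (adjusted p of the change 0.00102). Dhrs9 and Ceacam10 narrowed to -4.82 and -4.74, whereas the changes of Scrg1, Sycp2 and Cd55 did not pass; with array numbers as a block that of Cd55 did (adjusted p = 0.0192). Without deficient monocyte array 2 those of Scrg1 and Cd55 passed.

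For the 57 neutrophil-high genes with at least a 16-fold difference in controls, the median share kept was 59.4%, from 15.3% to 109.8%, and 41 of them had narrowed, against 8 of the 55 monocyte-high genes. Those counts were 46 and 30 without deficient monocyte array 2. Of shares not over 100%, the highest belonged to the myosin light chain Myl2 (95.0%), the meiotic gene Sycp2, the C-type lectin Clec4d, Slfn4 and Scrg1. The lowest belonged to Gca (15.3%), which encodes the granule protein grancalcin, Lcn2 (18.5%), Ltf (18.8%), Retnlg (23.6%) and Chil1 (24.6%). Chosen at 16-fold in the deficient arrays instead, 36 monocyte-high genes kept a median of 91.2% and 15 neutrophil-high genes 91.4%.

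Secondary and gelatinase granule genes came closer between the lineages. Of 25 genes tested, 15 were higher in deficient neutrophils and 1, Fcnb, in deficient monocytes, against 32.1% and 30.0% of all genes, and the median difference moved from -2.59 to -0.74. The change was positive and called for 10 of 25 against 2.17% of all genes, and monocyte levels rose for 16, against 5.11%. Of all neutrophil-high lineage genes, a called change narrowed 21.9%. Ltf, the iron-binding lactoferrin, read 11.40, 10.50, 11.18 and 10.92 in deficient monocytes and 12.13, 12.33, 11.93 and 11.80 in neutrophils. Its groups remained apart without overlap, at -1.04 ± 0.40 (SE) against -5.54 in controls. Lcn2, a siderophore-binding lipocalin, differed by -0.74 (adjusted p = 0.122), against -4.00 in controls. Control monocytes varied widely in both genes, with SDs of 1.26 and 1.36.

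Chil1, a chitinase-like protein of specific granules, read 10.36, 8.71, 9.84 and 9.93 in deficient monocytes and 11.26, 11.31, 11.01 and 11.16 in neutrophils. Its difference went from 63.8-fold to 2.78-fold, a change of 4.52 ± 0.40 (SE) with adjusted p = 6.29e-06. Among the granule genes with no called change were the metalloprotease Adam8, at -3.77 against -4.72 in controls, and the arginase Arg2, at -3.63 against -4.48. Both had an adjusted p of the change of 0.11 by limma, and that of Adam8 was 0.0284 with array numbers as a block. Stfa3, a stefin that inhibits cysteine proteases, narrowed from -7.20 to -2.43, and Stfa2 from -5.26 to -2.60, whereas Csta3 (-3.42) and Cstdc6 (-3.59) had no called change. Stefin genes are near-identical and their probe sets may share signal.

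Cd24a, the heat-stable antigen of neutrophils and precursors, and Cldn1, a tight-junction gene, narrowed to -0.59 and 0.16. Cldn1 read 8.79, 7.63, 8.27 and 8.22 in deficient monocytes and 8.28, 8.57, 7.64 and 7.78 in neutrophils, so its groups overlapped, while control monocytes were dim at 4.25. The remaining named genes of this kind were AA467197, at -2.61 in deficient cells against -6.36, and Ifit1bl2, at -3.04 against -4.51.

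Primary granule genes differed from the other granule genes in where they started: their median already leaned to monocytes in controls. That control median was 0.41 within set A and 1.57 within set B. These proteases are made at the promyelocyte stage and are also expressed by early monocyte precursors. Of 22 genes tested, 15 were higher in deficient monocytes and 3 in deficient neutrophils, against 11 and 5 in controls and 30.0% and 32.1% of all genes. The median difference was 2.17 against 1.12. The change was positive and called for 4 of the 22 (Fcnb, Mgst2, Prss57 and Serpinb1a), against 2.17% of all genes, and for 11 without deficient monocyte array 2, against 4.24%. The proteases with the highest differences were not among the 4. Mpo, the myeloperoxidase, read 11.82, 10.55, 11.92 and 12.06 in deficient monocytes and 6.27, 4.99, 6.10 and 7.59 in neutrophils. Its difference was 5.35 ± 0.61 (SE), or 40.8-fold, against 11.4-fold in controls, and the change of 1.84 did not pass (adjusted p = 0.362). Control monocytes had an SD of 1.50 for Mpo, and the change was 3.23 within set A and 0.45 within set B.

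Elane, the neutrophil elastase, had a difference of 5.17 and a change of 2.04 (adjusted p = 0.258); without deficient monocyte array 2 that change was 2.55 and passed. Prtn3, proteinase 3, differed by 4.96 with a change of 2.22 (adjusted p = 0.0826, and 0.00984 with array numbers as a block). Serpinb1a, an inhibitor of these proteases, lost its difference: it read 9.55, 8.46, 9.97 and 10.24 in deficient monocytes and 9.67, 9.86, 9.36 and 9.54 in neutrophils, which overlap, and -2.57 in controls had become -0.05 (adjusted p of the change 0.00201).

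**Figure D4:**
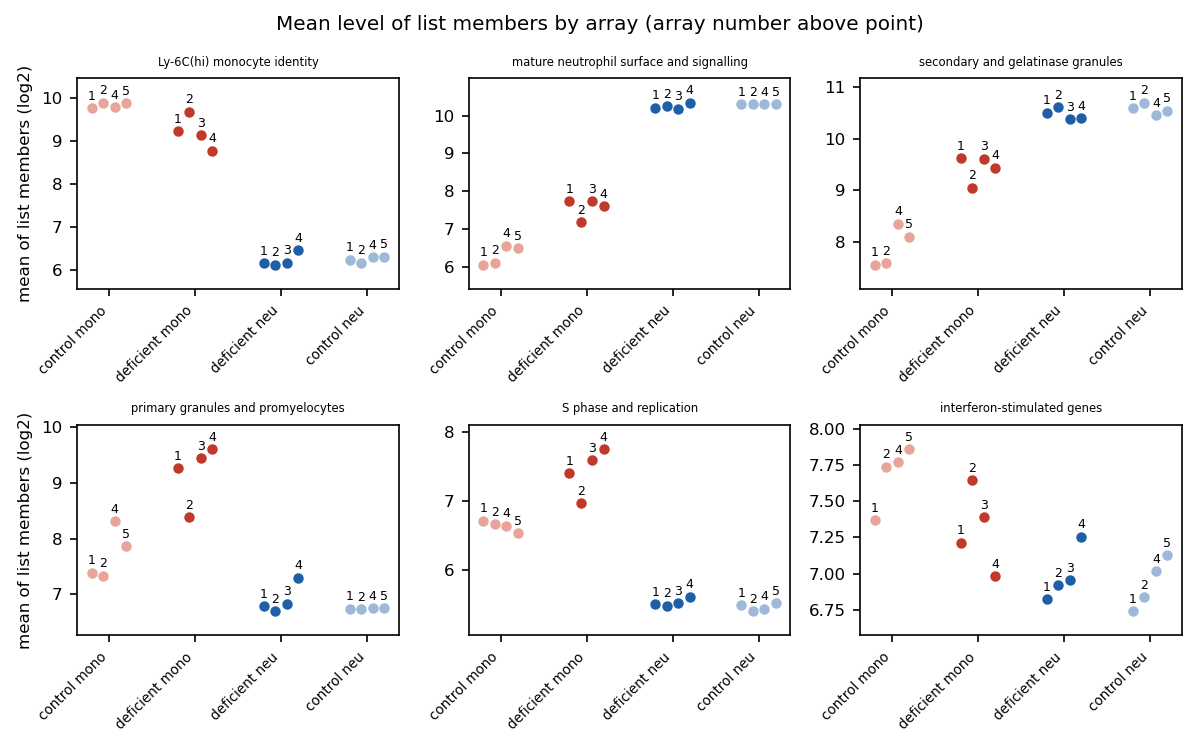
Mean log2 level over the members of 6 gene lists (y axis) for each array of control monocytes, deficient monocytes, deficient neutrophils and control neutrophils; the number above a point is the array number. Deficient monocytes lie at 7.19 to 7.74 for mature neutrophil genes and 9.05 to 9.63 for secondary granules, between the control cell types, and reach 8.39 to 9.61 for primary granules and 6.97 to 7.75 for S phase, above deficient neutrophils.

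Transcription factors of the monocyte side leaned less to monocytes than in controls. Of 26 tested, 13 were higher in deficient monocytes and 6 in deficient neutrophils, against 15 and 4 in controls and 30.0% and 32.1% of all genes. The median was 0.48 against 0.61 in controls, and 21 of the 26 changes were below 0. The change was negative and called for 4 (Atf3, Egr2, Pou2f2 and Tcf4), against 0.515% of all genes, and for 8 without deficient monocyte array 2, against 2.51%. Irf8, which directs progenitors to the monocyte lineage, read 8.43, 7.99, 7.57 and 7.52 in deficient monocytes and 5.32, 4.80, 5.11 and 5.26 in neutrophils, 2.76 ± 0.18 (SE) apart against 2.86 in controls. Klf4, required for Ly-6C(hi) monocytes, differed by 2.57 against 3.38 (adjusted p of the change 0.29), and Tfec by 4.32 against 4.03. Egr2, a zinc-finger factor induced by growth factors, moved through its neutrophils, which read 7.00, 7.34, 6.56 and 6.70 and rose by 1.45 over controls (adjusted p = 0.0111). Its difference was -1.83, against -0.20 in controls, and within set A its change did not pass.

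Granulocyte factors divided. Of 21 tested, 12 were higher in deficient neutrophils and 6 in deficient monocytes, the same numbers as in controls, beside 32.1% and 30.0% of all genes. A positive change was called for 5, against 2.17% of all genes. Cebpe, which drives the secondary granule programme, read 8.31, 7.57, 9.08 and 9.20 in deficient monocytes and 8.81, 8.86, 8.99 and 8.94 in neutrophils. The groups overlapped, with a difference of -0.36 ± 0.32 (SE) against -2.71 in controls (adjusted p of the change 0.00717). Ets1 narrowed from -2.89 to -0.73 and Mxd1, an antagonist of Myc, from -4.45 to -2.70, whereas Cebpd (-1.29 against -1.44) and Hlx (-1.25 against -1.56) had no called change.

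Factors of stem and progenitor cells were tested in 21 genes, of which 5 had a called positive change and none a negative one, against 2.17% and 0.515% of all genes. Without deficient monocyte array 2, 6 were positive and 1 negative, against 4.24% and 2.51%. Myb, needed for progenitor proliferation, read 8.31, 6.92, 8.61 and 8.92 in deficient monocytes and 7.33, 7.14, 7.02 and 6.91 in neutrophils. Its difference was 1.09 against -0.97 in controls, below the 2-fold limit on the control side, with adjusted p of the change of 0.00758. The ETS factor Erg narrowed from -2.80 to -0.95, and Zeb1, the paralogue of Zeb2, from -2.28 to -1.11 as its monocyte level rose by 1.31. Kit, the stem cell factor receptor and one of the progenitor markers, went from -1.53 to 0.21. The mean over the progenitor markers Kit, Cd34, Flt3 and Myb ran from 5.57 to 6.22 in deficient monocytes and from 5.12 to 5.38 in control monocytes. Cd34 was dim in every group, and the part of progenitor cells in these values was not tested.

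Replication genes were higher in deficient monocytes throughout. All 31 genes tested on the S phase list were called in that direction, against 27 in controls and 30.0% of all genes, and the median difference was 2.06 against 1.17. The change was above 0 for all 31 and called for 5, against 2.17% of all genes; without deficient monocyte array 2 it was called for 17, against 4.24%. Mcm2, a subunit of the replicative helicase, read 7.79, 7.16, 8.02 and 7.72 in deficient monocytes and 5.31, 5.27, 5.34 and 5.37 in neutrophils. Its difference was 2.35 ± 0.15 (SE), or 5.10-fold, against 2.13-fold in controls. Of the G2 and mitosis list 19 of 31 were higher in deficient monocytes, against 30.0% of all genes, and none had a called change.

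Differences in protein synthesis and respiration genes persisted. Cytosolic ribosomal protein genes were higher in deficient monocytes in 44 of 46, with a median of 1.35 against 1.45, and respiratory chain genes in 43 of 50, with 0.86 against 0.77, beside 30.0% of all genes; neither list held a called change. Glycolysis genes moved from a median of -0.54 to -0.08, the latter just above 0 after quantile normalization. Of 18 tested, 7 were higher in deficient neutrophils and 4 in deficient monocytes, against 10 and 4 in controls. The shares of all genes between deficient cells were 32.1% and 30.0%. A positive change was called for 2 of the 18, against 2.17% of all genes: Slc2a3, a glucose transporter of neutrophils, and Hk3, a hexokinase. Slc2a3 differed by -3.20 against -5.65 in controls. With array numbers as a block the change of Hk3 did not pass (adjusted p = 0.0751).

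Receptors showed both patterns within a family. Of 29 Toll-like and C-type lectin receptors, 12 were higher in deficient monocytes and 14 in neutrophils, against 30.0% and 32.1% of all genes. A positive change was called for 2 and a negative one for 1, against 2.17% and 0.515%; without deficient monocyte array 2 these were 3 and 5, against 4.24% and 2.51%. Clec4d, an inflammatory lectin, kept its neutrophil difference at -4.11 against -4.50. Clec4b2 gained a monocyte difference: it read 9.13, 7.61, 9.26 and 9.68 in deficient monocytes and 5.30, 5.06, 5.40 and 5.94 in neutrophils, 3.49 apart against -0.31 in controls (adjusted p of the change 0.000508). Clec4n, which encodes dectin-2, widened on the neutrophil side, with 4.31, 5.08, 4.64 and 4.73 in deficient monocytes and 7.86, 7.32, 8.29 and 7.43 in neutrophils. Its neutrophil level rose by 1.80 over controls (adjusted p = 0.000463), and the difference went from -1.15 to -3.04.

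Of 21 Fc, complement and scavenger receptors, 5 were higher in deficient monocytes and 12 in deficient neutrophils, against 9 and 11 in controls. The shares of all genes between deficient cells were 30.0% and 32.1%. A positive change was called for 3 and a negative one for 2, against 2.17% and 0.515% of all genes. Without deficient monocyte array 2 these were 4 and 5, against 4.24% and 2.51%. Among the 21, Trem1, which amplifies inflammatory signals, and Trem3 narrowed to -3.14 and -1.37 from -5.29 and -3.45. The scavenger receptors Msr1 (5.31 against 5.95) and Scarb1 (2.82 against 2.71) kept their monocyte differences, and Fcgr4, an activating Fc receptor, its neutrophil one (-2.74 against -3.31). Of 29 chemokine receptors and adhesion molecules 4 had a called change, all positive, against 2.17% of all genes. Among these 4 were Cxcr2 and C5ar1, the receptor for complement C5a (-2.52 against -4.10). Without deficient monocyte array 2, 4 changes were positive and 4 negative, against 4.24% and 2.51% of all genes. Vcam1 differed by 2.28 against -0.27, with deficient monocyte arrays at 6.87, 5.37, 8.78 and 8.80 that overlap the neutrophils, and its change had adjusted p = 0.0901, or 0.0265 with array numbers as a block.

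Antigen presentation and lysosomal genes were more often higher in monocytes, with smaller medians than in controls. Of 23 MHC class II and dendritic cell genes 14 were higher in deficient monocytes, against 30.0% of all genes, with a median of 0.66 against 1.14; H2-Ab1 differed by 2.71 against 2.90 and Cd74 by 2.85 against 3.69, and Tcf4, a factor of plasmacytoid dendritic cells, narrowed from 1.89 to 0.95. Of 29 lysosomal genes 18 were higher in monocytes, against 30.0% of all genes and 20 in controls, with a median of 0.53 against 1.11 and 18 of 29 changes below 0. The change was called for Scarb2, a lysosomal membrane protein, which narrowed from 1.01 to 0.13. Without deficient monocyte array 2 the change was called for 7, 5 of them negative, against 2.51% of all genes negative and 4.24% positive. The largest differences were those of the cathepsins Ctsc (5.02 against 4.76) and Ctsg (4.79 against 2.80); the change of Ctsg had adjusted p = 0.161, or 0.0316 with array numbers as a block.

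Interferon-stimulated genes, read 3 weeks after poly(I:C) in both genotypes, had a median of 0.05 between deficient cells and 0.71 between control cells, and 34 of 40 changes were below 0. The median between deficient cells was 0.38 within set A, -0.10 within set B and below 0 after quantile normalization, so it had no settled sign. Within set A the median change was -0.19, within set B it was -0.79, and 4 of 40 changes were called: 3 negative, Ifi203 and Ifi209 among them, and 1 positive, Ifitm1, against 0.515% and 2.17% of all genes. With deficient monocyte array 2 left out, 8 were negative and 1 positive, against 2.51% and 4.24% of all genes. Ifi209 differed by 4.89 against 6.26, while Mx1 (3.02 against 3.48) had no called change. Of 30 genes of the interleukin-1 family and inflammatory cytokines 20 were higher in deficient neutrophils, against 32.1% of all genes, with medians of -1.26 and -1.04. A positive change was called for 4 (Il18r1, Il18rap, Il1f9 and Il1r2) and a negative one for Csf1 and Il18, against 2.17% and 0.515%. Without deficient monocyte array 2, 5 were positive, against 4.24% of all genes, and 5 negative, against 2.51%. Ccl9, a chemokine of myeloid cells, was an exception at 4.07 against 4.68.

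Of 18 genes of arachidonic acid metabolism tested, monocyte levels rose for 3 and fell for 2 by a called change. The shares of all genes were 5.11% and 2.44%. A positive change of the difference was called for 2 of the 18, against 2.17% of all genes, and a negative one for none. The median difference was -0.36 against -0.40 in controls, and 10 of the 18 changes lay below 0. Alox5 and Lta4h, successive enzymes of leukotriene synthesis, rose by 1.86 and 2.10 in monocytes. Alox5 read 8.08, 7.26, 7.67 and 7.83 in deficient monocytes and 10.43, 10.21, 9.86 and 10.14 in neutrophils, -2.45 apart against -4.32. Lta4h went from -1.78 to 0.51 with overlapping arrays. Of the NADPH oxidase list 2 of 8 were higher in deficient neutrophils, Ncf1 and Ncf4, which is near the 32.1% of all genes, and 4 were higher in control neutrophils. A positive change was called for 1 of the 8, against 2.17% of all genes. Hvcn1, a proton channel that supports the oxidase, had a called change of 1.64, which did not pass with array numbers as a block (adjusted p = 0.0707).

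Growth factor signalling differed by receptor. Csf1r, the receptor that sustains monocytes, was 1.21 higher in deficient monocytes against 2.02 in controls (adjusted p of the change 0.26), and Csf3r kept its difference of -2.47 against -2.41. Csf1, the ligand of Csf1r, widened on the neutrophil side: it read 4.26, 5.13, 4.80 and 4.84 in deficient monocytes and 8.20, 7.63, 7.71 and 8.23 in neutrophils. The neutrophil level rose by 1.48 over controls (adjusted p = 0.00258), and the difference of -1.51 became -3.18.

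The widened genes were few, 10 of 2762 lineage genes, 27 with array numbers as a block and 49 without deficient monocyte array 2. Besides Clec4n and Csf1, the axonemal dynein Dnah6 and Rragd, a GTPase that signals amino acid supply to mTORC1, widened as neutrophils rose by 1.49 and 1.11. Mcm2, Mms22l, Rab7b and Tagln2 widened as monocytes rose, from 0.60 for the actin-binding Tagln2 to 1.41 for the endosomal GTPase Rab7b. Within set A none of these 8 changes passed.

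A further 30 genes differed by 2-fold or more between deficient cells and were not called between controls, with a called change: 27 higher in monocytes and 3 in neutrophils. There were 48 such genes without deficient monocyte array 2, of which 24 were among the 30. Retnla, a resistin-like protein of alternatively activated macrophages, read 8.49, 6.36, 9.47 and 9.44 in deficient monocytes and 3.94, 3.69, 4.05 and 4.17 in deficient neutrophils, which is dim, beside 3.02 in control monocytes. The difference was 4.48 ± 0.47 (SE), against -1.08 in controls, which was not called, a change of 5.56 with adjusted p = 0.000179. Fcnb, a ficolin of granulocyte precursors, read 10.31, 9.09, 10.12 and 10.34 in deficient monocytes and 6.49, 6.57, 6.20 and 6.52 in neutrophils, 11.4-fold apart against 1.55-fold. Chit1, a chitinase of macrophages, differed by 2.21, the growth factor Nrg4 by 1.71, and Cdca7, Dmc1 and Agps by 1.50, 1.37 and 1.03. In every one of these 8 genes, Clec4b2 included, array 2 was the lowest of the deficient monocytes.

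Lists of other blood lineages held few genes above the filter. Of 10 eosinophil, mast cell and basophil genes tested, 4 were higher in deficient neutrophils, near the 32.1% of all genes, and none in monocytes, led by Hdc, the histidine decarboxylase that neutrophils also express (-3.89 against -5.33). A positive change was called for 2 of the 10, against 2.17% of all genes. Of 16 erythroid and megakaryocyte genes 9 were higher in neutrophils, against 32.1%, and a positive change was called for 2, against 2.17% of all genes. Cd9 narrowed to -1.91 from -4.01, and Tfrc, the transferrin receptor of dividing cells, was 1.54 higher in deficient monocytes against 0.09. The mean over the megakaryocyte markers Pf4, Itga2b, Gp9 and Ppbp ran from 4.99 to 7.46 in deficient neutrophils and from 4.60 to 5.52 in deficient monocytes, and the part of platelets in these values was not tested. Among lymphocyte genes, Nkg7, a cytotoxic granule protein, differed by 4.41 against 1.22, with deficient monocyte arrays at 9.99, 8.08, 10.56 and 10.98; its change had adjusted p = 0.0703, or 0.0274 with array numbers as a block, and the NK cell markers Ncr1 and Klrb1c were dim in every group.

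**Figure D5:**
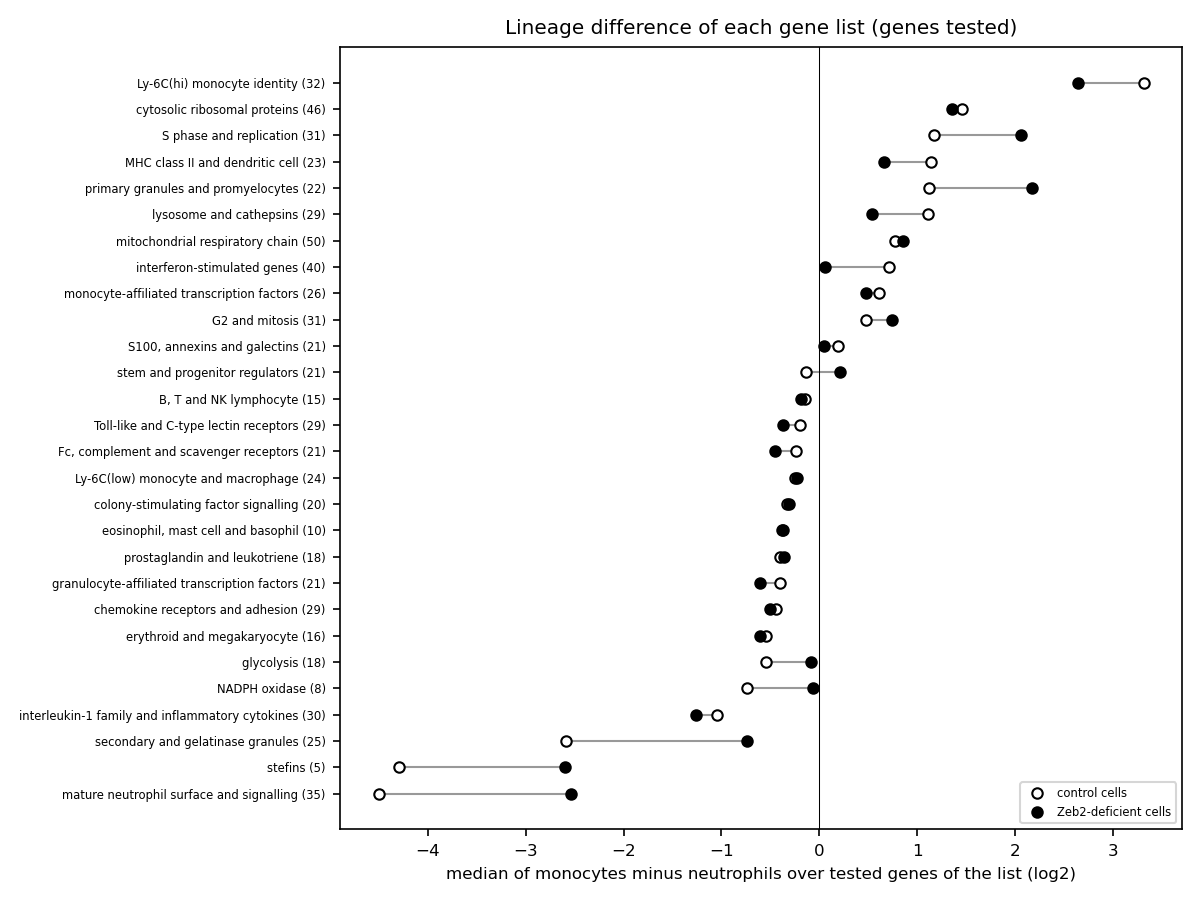
Median difference between monocytes and neutrophils (x axis, log2) of each gene list, with the number of genes tested in parentheses; open circles are control cells and filled circles deficient cells. Mature neutrophil genes move from -4.50 to -2.54, secondary granules from -2.59 to -0.74 and primary granules from 1.12 to 2.17, whereas ribosomal proteins stay at 1.45 and 1.35.

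The promoters of narrowed genes were searched for the motifs shown above. RefSeq promoters were matched for 173 of the 210 narrowed neutrophil-high genes, and CACCTG or its complement lay in 28.2% of their 234 promoters. It lay in 19.6% of promoters of the other neutrophil-high genes. For monocyte-high genes it lay in 8 of 52 promoters (15.4%) of the narrowed and in 13.6% of those of the others. It lay in 19.0% of promoters of all genes tested and in 20.2% of all 32851 promoters. The C/EBP motif lay in 13.2% of promoters of narrowed neutrophil-high genes and 9.1% of those of the other neutrophil-high genes. For monocyte-high genes it lay in only 9 of 52 promoters (17.3%) of the narrowed and in 7.4% of those of the others. Its share was 8.4% for all genes tested and 10.8% for all promoters. These shares carry no test.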

How the data were processed

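The probe annotation names the platform as the Affymetrix Mouse Gene 1.0 ST array. The labels' protocols give the RNAqueous-Micro kit for extraction and the Ovation PicoSL kit for target preparation. Per the submitters' processing notes the authors used RMA, and the deposited values are its log2 intensities, 1 per probe set; the sources used here do not give its software or settings. RMA draws very low and very high intensities together, so differences that reach either end can be understated. Values ran from 1.05 to 13.5, with array medians from 4.81 to 4.92, and no arrays were identical.

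Of 30177 probe sets, 21789 named 1 gene, 1621 several and 6767 none; only the first kind was used. They covered 19938 genes, 99.59% of them with an identifier in the RefSeq table of GRCm38.p6, and the brightest probe set was kept for the 999 genes with several. A gene entered the tests where at least 4 of 18 arrays read above their 40th percentile, which 13387 did. A limma fit (3.58.1, under R 4.3.3) with 1 mean per group used all 18 arrays and a variance trend, leaving 12 residual degrees of freedom; tests were two-sided, with Benjamini-Hochberg adjustment over all genes tested. The model was also run on simulated data with independent arrays, a run that does not cover the array sets. The 28 gene lists held 758 symbols, of which 676 had a probe set and 618 were tested, and some genes stand in several lists. The members, lists and naming rule were chosen with earlier results of these data known. No p-value is given for a list, and a planned permutation test of list levels was therefore not made.

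The named genes comprise Zeb2, the 10 highest and 10 lowest differences between deficient cells without overlap of arrays, the 10 smallest p-values of the change among narrowed genes of each kind, 8 among widened and 8 among new differences, the 5 highest and 5 lowest shares kept among differences of at least 4 (log2) on each side, and up to 6 members of each list. Symbols like those of clones, predicted genes or small RNAs were left out of the ranked names, which drops Mirt2 from the ranked genes. The markers of other cells come from the marker lists.

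Deviations from group means correlated at 0.124 to 0.246 between deficient monocyte and neutrophil arrays of the same number, and at 0.123 to 0.237 between other numbers of the same array set. Across sets they correlated at -0.273 to -0.122, and for controls of the same number at 0.059 to 0.259. The labels state no pairing. The fit with array number as a block is given beside a result where it changes the call. Alternatives covered filters, normalization, a floor, probe sets, variance models, blocks, array sets, single arrays left out, and the choice of lineage genes.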

Additional observations from a re-analysis of the deposited data

Results flagged for a closer look

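The difference between monocytes and neutrophils changed between genotypes for 359 genes by the test of the change itself. Among the genes named, the change was positive, toward monocytes, for Retnla (5.56), Retnlg (5.55), Ly6g (5.29), Stfa3 (4.77), Chil1 (4.52), Il1f9 (3.90), Clec4b2 (3.80), AA467197 (3.75) and Cldn1 (3.72). It was smaller and positive for Fcnb (2.89), Il18rap (2.68), Chit1 (2.50), Cd24a (2.02), Nrg4 (1.86), Cdca7 (1.62) and Ifit1bl2 (1.47), and for Agps (1.27), Mcm2 (1.26), Rab7b (1.25), Dmc1 (1.21), Mms22l (0.95) and Tagln2 (0.72). It was negative, toward neutrophils, for Clec4n (-1.89), Csf1 (-1.68), Ifi203 (-1.50), Nlrp1c-ps (-1.43), Cd209a (-1.36), Mta3 (-1.22), Pou2f2 (-1.09), Dnah6 (-1.07), Neurl2 (-1.01), Rragd (-0.97), Gpr155 (-0.92), Map7d3 (-0.90), Tmem64 (-0.88) and Tmsb10 (-0.80).

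Of 364 groups of 4 deficient arrays examined over 182 named genes, 16 held an array whose gap to the nearest other, as a share of the range, exceeded Dixon's critical value for 4 samples, and chance gives about 1 in 20. Deficient monocyte array 2 was that array 7 times: it was the lowest for Agps (8.07), Cd24a (10.76), Ets1 (5.81), Mpo (10.55) and Stfa2 (5.24), each a gene whose monocyte level was above controls, and the highest for Cd209a (5.06) and Egr2 (5.56). Deficient monocyte array 1 was the highest for Ctse (8.38) and the lowest for Fcgr4 (4.86). Deficient neutrophil array 3 was the lowest for Clec4a1 (3.97), Csf3r (11.001) and Slc16a3 (8.46). Deficient neutrophil array 2 was the highest for Dhrs9 (10.36) and Tfrc (5.13), and array 4 the highest for Ptgs2 (10.88) and Tfec (4.57).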

How the results depend on the processing

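The 5 list medians between deficient cells that lay near 0 changed sign under some alternatives: interferon-stimulated genes (0.38 within set A, -0.10 within set B, and below 0 after quantile normalization or without deficient monocyte array 2), stem and progenitor regulators (-0.17 within set A, and below 0 without deficient monocyte array 4), S100, annexins and galectins (-0.02 within set B, and below 0 without 1 of 4 single arrays), and glycolysis and NADPH oxidase (above 0 after quantile normalization, glycolysis also without deficient neutrophil array 2). Counts that moved by over 1.5 times follow. The stricter filter left 2708 genes higher in deficient neutrophils. The change of the difference was called for 567 genes with array set as a block, 650 with array weights, 115 within set A and 733 within set B. Narrowed monocyte-high genes numbered 88, 124, 5 and 146 in the same order, 27 at 4-fold and 28 when chosen in the deficient arrays. Narrowed neutrophil-high genes numbered 94 within set A, 138 at 4-fold and 102 when chosen in the deficient arrays. Widened genes numbered 25 with array set as a block, 37 with array weights, 2 within set A, 42 within set B, 2 at 4-fold and 50 when chosen in the deficient arrays. At 4-fold, 792 lineage genes remained in the definition, of which 329 monocyte-high and 152 neutrophil-high genes were kept. The causes were not tested. By construction the 4-fold limit and the stricter filter admit fewer genes. Each set has fewer arrays than the whole, and called changes were fewer within set A and more numerous within set B.

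With array number as a replicate block, 8444 genes differed between the deficient cell types, the change was called for 407, 59 monocyte-high and 214 neutrophil-high genes narrowed and 27 widened; beyond the genes given in the report, the block changed the calls of Anxa3 and Gpr155 between deficient cells and of Cd63, Mcm6 and Myc in the change.

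Leaving out 1 array at a time gave 3791 to 4000 genes higher in deficient monocytes and 3754 to 4255 in neutrophils, 1716 to 1868 and 769 to 852 of them at 2-fold. It gave 2719 to 2811 lineage genes, 1322 to 1479 monocyte-high and 602 to 664 neutrophil-high genes kept, 30 to 211 and 156 to 300 narrowed, 6 to 49 widened and 245 to 904 called in the change. The arrays whose absence moved a count by over 1.5 times were deficient monocyte 2 (904, 211 and 49), deficient monocyte 3 (31 narrowed monocyte-high genes), deficient neutrophil 3 (33 narrowed and 6 widened), deficient neutrophil 4 (32), control neutrophil 2 (30 and 6) and control monocyte 1 (6 widened). Anxa3 was the only named gene whose difference between deficient cells changed sign, at 0.0078 within set B (adjusted p = 0.969 by limma). The fit of the deficient arrays alone gives no change of the difference.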
